A study of Mus musculus with 16 samples.

Results

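The 42 genes described here encode integrin chains, tensins and the adaptor proteins of focal adhesions. They were taken as a list of symbols, matched by Ensembl identifier to the count table, and make up 42 of its 55536 genes. The list holds 20 integrin chains and 22 tensins and adaptors. Of the 42, 36 passed the filter on low counts and were tested, 15 integrin chains and 21 tensins and adaptors. The RNA came from a mouse inner medullary collecting duct cell line, derived from a mouse whose Pkd2 gene can be knocked out with doxycycline (DOX). Cells of passage 4 and passage 7 spent 10 days on permeable filters and received DOX at 2 ug/mL for 6 days or none, which gives 4 groups of 4 libraries. All 16 titles speak of Pkd2 knockout cells, and the genotype field reads wild type without DOX. Every library therefore comes from 1 line with the inducible allele. No group received DOX without carrying that allele, so DOX and the loss of Pkd2 cannot be told apart. Nothing in the labels says that the 4 replicates were separate cultures, so p-values measure the spread between these libraries.

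Integrins are receptors of an alpha and a beta chain that bind collagens, laminins or proteins with an RGD sequence outside the cell. Talins and kindlins bind their tails and activate them, and tensins, vinculin, alpha-actinin and filamin join them to actin. The ILK complex and the kinase FAK with its partners paxillin and p130Cas pass on the signal. In the kidney tubule, integrins hold the epithelium to its basement membrane, and mice that lack Tns1 are known to develop kidney cysts.

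Total counts were 9937504 to 17188295 per library, and levels are given as CPM, each gene's count per unit of library size after scaling by edgeR's TMM method. Pkd2, the targeted gene, stood at 135 to 145 CPM in passage 4 libraries without DOX and at 47.8 to 57.4 CPM with it. At passage 7 it stood at 184 to 187 CPM without DOX and at 47.6 to 65.9 CPM with it. Its log2 fold change was -1.41 (adjusted p = 8.8e-10) at passage 4 and -1.71 (4.3e-11) at passage 7. All 10 epithelial markers checked were expressed, with a summed level of 6706 to 10025 CPM, but Aqp2, the water channel that defines collecting duct principal cells, was at 0 in all 16 libraries and 7 of 12 principal cell markers passed the filter. Replicates 1 and 2 stood apart from replicates 3 and 4 within every group: 15 of the 36 members differed between these pairs, 3 higher and 12 lower in replicates 3 and 4, against 36.9% of all tested genes. What sets the pairs apart is not given. The tests were repeated with the replicate number as a block, with the pair as a term and within each pair alone. Every DOX change called below kept its sign within each pair, and the values within pairs are given for the members shown library by library and wherever a call was lost.

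The stretches upstream of 4 members that were lower with DOX at both passages, Tns1, Tns3, Vcl and Fermt2, are shown so that their letters can be read beside their values. They were picked after those values were seen. The sequences are RefSeq's on build GRCm38.p6, 5′ to 3′ on the gene's own strand, and end before the gene model. Capitals mark the CArG box of serum response factor (SRF), GGAATG, the core bound by TEAD factors, and GGGCGG, the GC box bound by Sp and KLF factors, each on either strand.
Tns1, chr1:74124549-74124798, minus strand: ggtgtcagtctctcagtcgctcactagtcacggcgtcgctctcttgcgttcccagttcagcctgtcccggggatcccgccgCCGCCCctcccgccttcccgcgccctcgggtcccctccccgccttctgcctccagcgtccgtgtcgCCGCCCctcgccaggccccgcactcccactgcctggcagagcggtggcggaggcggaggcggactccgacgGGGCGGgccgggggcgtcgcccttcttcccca
Tns3, chr11:8664536-8664785, minus strand: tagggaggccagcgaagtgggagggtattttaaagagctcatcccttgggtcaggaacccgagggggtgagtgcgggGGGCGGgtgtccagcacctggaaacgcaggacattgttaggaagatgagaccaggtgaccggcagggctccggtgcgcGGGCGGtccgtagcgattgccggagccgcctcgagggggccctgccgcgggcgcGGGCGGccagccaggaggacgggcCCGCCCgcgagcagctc
Vcl, chr14:20929148-20929397, plus strand: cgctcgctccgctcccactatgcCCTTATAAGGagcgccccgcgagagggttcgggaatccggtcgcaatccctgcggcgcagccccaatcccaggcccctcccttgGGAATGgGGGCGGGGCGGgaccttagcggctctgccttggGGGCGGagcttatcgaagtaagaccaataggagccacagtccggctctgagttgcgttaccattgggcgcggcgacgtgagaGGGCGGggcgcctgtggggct
Fermt2, chr14:45530119-45530315, minus strand: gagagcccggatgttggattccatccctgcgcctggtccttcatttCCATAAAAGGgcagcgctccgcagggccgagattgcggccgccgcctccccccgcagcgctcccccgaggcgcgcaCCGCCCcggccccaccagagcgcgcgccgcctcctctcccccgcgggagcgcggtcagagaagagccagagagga
A CArG box lies in the Vcl window 227 to 218 bases before the start (CCTTATAAGG) and in the Fermt2 window at 204 to 195 (CCATAAAAGG). The Vcl window also holds GGAATG at 143 to 138, and a pair of its GGGCGG matches share 1 base. Positions count back from the RefSeq start. For Fermt2 that start lies inside the gene model, past the end of the 197 printed bases. Further GGGCGG matches in the searched windows of Fermt2 and Tns1 lie beyond the printed letters and are not shown. Windows of 250 bases before to 50 after the start were at hand for 30 of the 42 members. The CArG box was present for 3 of the 30, Fermt2, Itgb6 and Vcl (10.0%), and for 1.81% of 27025 genes. Any window of a gene counted, also that of a start inside the gene model. The Itgb6 match lies in such an inner window, and the window at the outer start of Itgb6 held no CArG box. GGAATG was present for 16.7% of the members and 16.6% of all genes, TGANTCA, the site of AP-1, for 13.3% and 8.97%, and GGGCGG for 66.7% and 38.2%. The 4 motifs were searched on both strands, and such a match is a description of letters only.

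With DOX at passage 4, 12 of the 36 tested members fell and 5 rose. Of all 15316 tested genes 9.10% fell and 8.45% rose. The members were chosen with earlier results of these data known, so their counts beside these shares are a description and no independent test. At passage 7, 13 members fell and 4 rose, against 11.6% and 11.1% of all genes. The median log2 fold change of the members was -0.19 at passage 4 and -0.14 at passage 7, and that of all tested genes 0.00 and -0.01. The members are more highly expressed than most genes, with a median level of 165 CPM against 26.1 CPM for all tested genes, which bears on how readily a change is called. Among genes with a mean of at least 50 CPM, a limit chosen after seeing the data, 11 of 25 members fell and 3 rose at each passage. Of such genes 11.6% fell and 12.6% rose at passage 4, and 15.1% fell and 15.8% rose at passage 7.

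The plot of DOX responses by role sets the groups of members side by side. Of the 21 tensins and adaptors, 10 fell and 1 rose at passage 4, and 9 fell and 0 rose at passage 7. There edgeR gave 1 of the 21, Lims1, an unadjusted p under 0.05 for a rise, DESeq2 called 0, the test with the replicate number as a block called Lims1 higher (0.16, adjusted p = 0.015), and the values not called ran from -0.38 to 0.39. Of the 15 integrin chains, 4 rose and 2 fell at passage 4, and 4 rose and 4 fell at passage 7. The DOX comparisons at passages 4 and 7 share no library but come from 1 fit with a shared estimate of the spread. At both passages 8 members fell (Itgav, Tns1, Tns3, Fermt2, Parva, Bcar1, Vcl, Actn4) and 3 rose (Itga2, Itga6, Itgb5), and 0 were called in opposite directions. Of all tested genes 6.08% fell and 5.05% rose at both. The treated and untreated libraries did not overlap, with the treated ones lower, for 15 members at passage 4 and 14 at passage 7, against 11.0% and 12.8% of all genes. The treated ones were the higher for 5 and 4 members, against 10.3% and 12.4%. With the replicate number as a block, 21 members fell at passage 4 in place of 12, against 14.0% of all tested genes in place of 9.10%. The 9 added were Itga1, Itga5, Itgb1, Itgb3, Tln1, Ilk, Lims1, Zyx and Flna, with log2 fold changes of -0.39 to -0.15. At passage 7, 19 members fell with the block in place of 13, the added ones being Itgb4, Itgb6, Itgb8, Tln2, Pxn and Actn1. The share of all tested genes under the block at passage 7 is not reported here. In bulk RNA, fewer cells of a kind and less RNA per cell cannot be told apart.

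**Figure D1:**
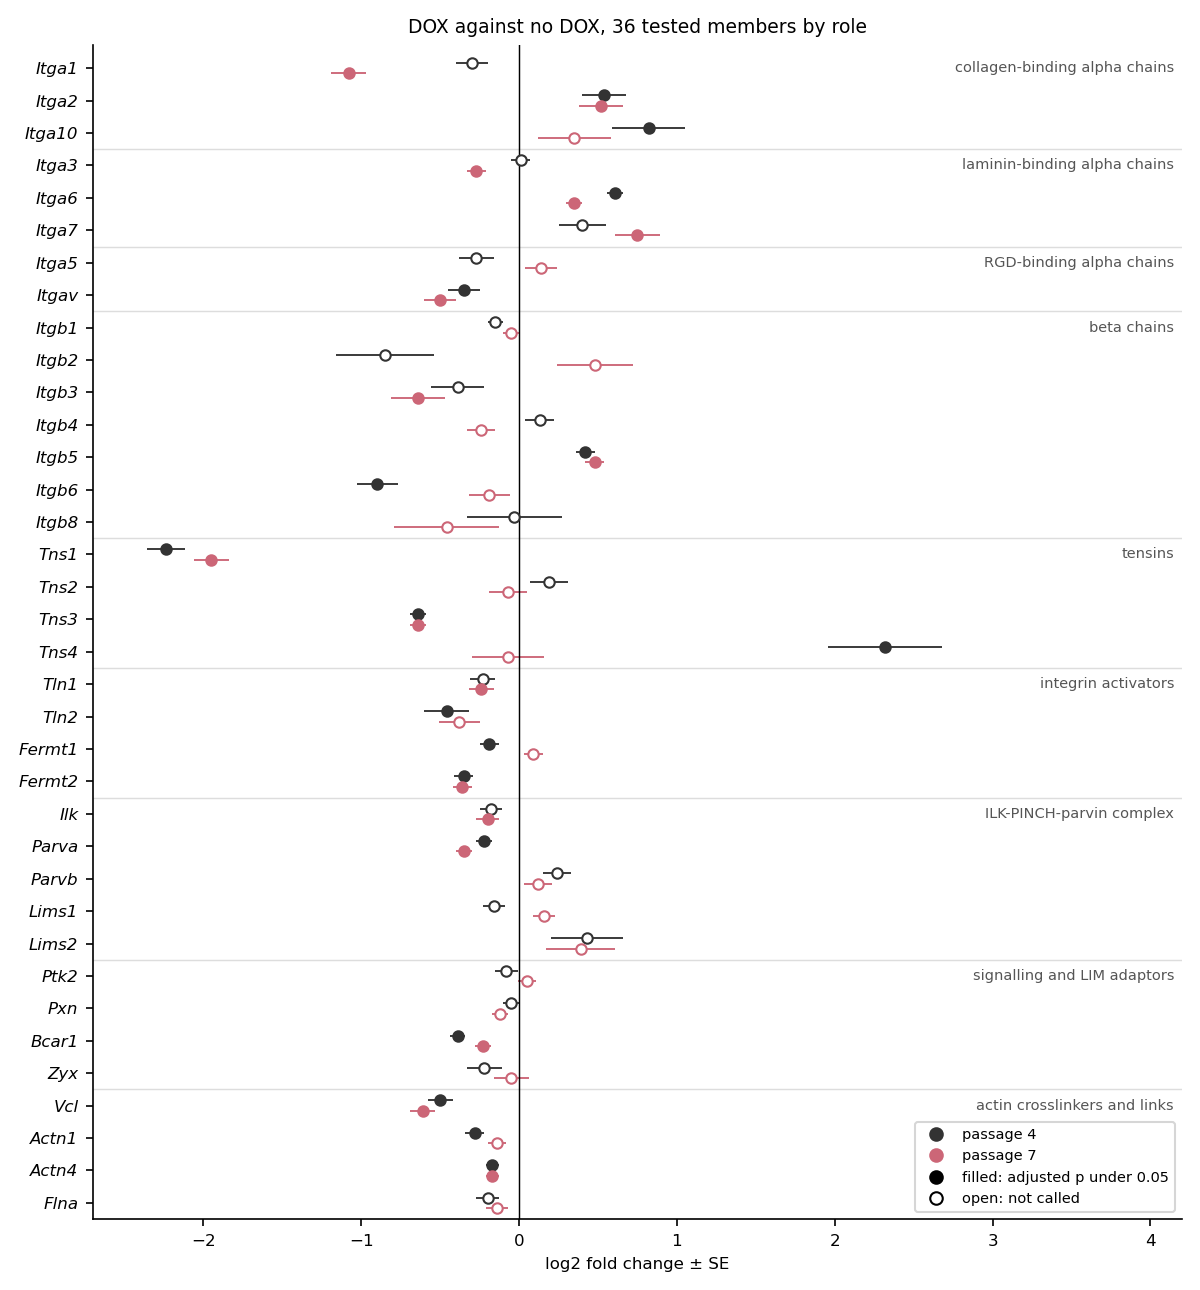
Log2 fold change with DOX (horizontal axis, ± SE) for each of the 36 tested members, grouped by role, at passage 4 (dark) and passage 7 (red); filled points have an adjusted p under 0.05. Tns1 lies farthest to the left at both passages (-2.24 and -1.95), Tns4 far to the right at passage 4 alone (2.32 against -0.07), and most adaptors a little left of 0.

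The tensins, adaptors between integrin tails and actin, held the deepest fall (Tns1) and the steepest rise (Tns4) among the 36 tested members. Tns4 had 6 to 14 counts a library at passage 4 without DOX and 30 to 64 with it. Members low in every group were not tested, so the place of Tns4 depends in part on the filter. Tns1 (chromosome 1, 73910231 to 74124449), the most abundant tensin without DOX, fell to 21.2% of its level at passage 4 and 26.0% at passage 7. In passage 4 cells without DOX it stood at 993, 972, 1085 and 1148 CPM in replicates 1 to 4, and with DOX at 209, 289, 196 and 196 CPM. At passage 7 it stood at 597, 526, 595 and 703 CPM without DOX and at 163, 161, 160 and 146 CPM with it. The groups were far apart at both passages, and the spread within a group was small beside the gap. This gave a log2 fold change of -2.24 ± 0.12 (SE; adjusted p = 1.3e-09) at passage 4 and -1.95 ± 0.11 (4.5e-09) at passage 7. Within replicates 1 and 2 it was -1.98 and -1.80, and within replicates 3 and 4 -2.51 and -2.09.

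Tns3 (chromosome 11, 8431652 to 8664535), a tensin that like Tns1 binds both integrin tails and actin, fell by a smaller and equal amount at both passages. At passage 4 its libraries read 253, 248, 244 and 254 CPM without DOX and 164, 168, 154 and 156 CPM with it. At passage 7 they read 227, 217, 206 and 217 CPM without DOX and 143, 152, 130 and 133 CPM with it. No libraries of the compared groups overlapped. Both passages gave a log2 fold change of -0.64 ± 0.05 (adjusted p = 1.1e-07 and 8.8e-08), with -0.59 at each passage within replicates 1 and 2 and -0.68 and -0.69 within replicates 3 and 4.

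Tns4 (chromosome 11, 99065678 to 99089306), a short tensin that lacks the actin-binding part, went the other way at passage 4. It stood at 0.498, 1.03, 0.666 and 0.625 CPM without DOX, from 6 to 14 counts a library, and at 4.42, 2.29, 5.50 and 2.41 CPM with DOX. At passage 7 the libraries without DOX already held 5.91, 8.54, 10.6 and 9.53 CPM, and those with DOX 11.0, 7.68, 7.11 and 7.17 CPM. The groups were apart at passage 4 and overlapped at passage 7. With DOX the log2 fold change was 2.32 ± 0.36 (adjusted p = 0.00015) at passage 4 and -0.07 ± 0.23 (0.87) at passage 7, and the difference of the responses was -2.40 ± 0.43 (0.0082). The difference was -1.69 within replicates 1 and 2, where it was not called (adjusted p = 0.099), and -3.08 within replicates 3 and 4. Tns2, the remaining tensin, did not pass the test at either passage (0.19 and -0.07).

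Set per kilobase of exon so that genes can be compared, the 4 tensins together gave 95.2 ± 5.42 CPM per kilobase (SD, n = 4) at passage 4 without DOX and 37.1 ± 4.38 with it. At passage 7 the sum was 69.6 ± 3.85 without DOX and 34.1 ± 2.79 with it. Tns1 supplied 68.8% ± 1.47 of the sum at passage 4 without DOX and 37.2% ± 3.1 with it, and 54.2% ± 3.9 and 28.9% ± 1.58 at passage 7. With DOX at passage 7, Tns3 supplied 36.6% ± 1.19, Tns2 29.9% ± 1.58 and Tns4 4.66% ± 0.823. These sums and shares describe the members and were not tested.

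**Figure D2:**
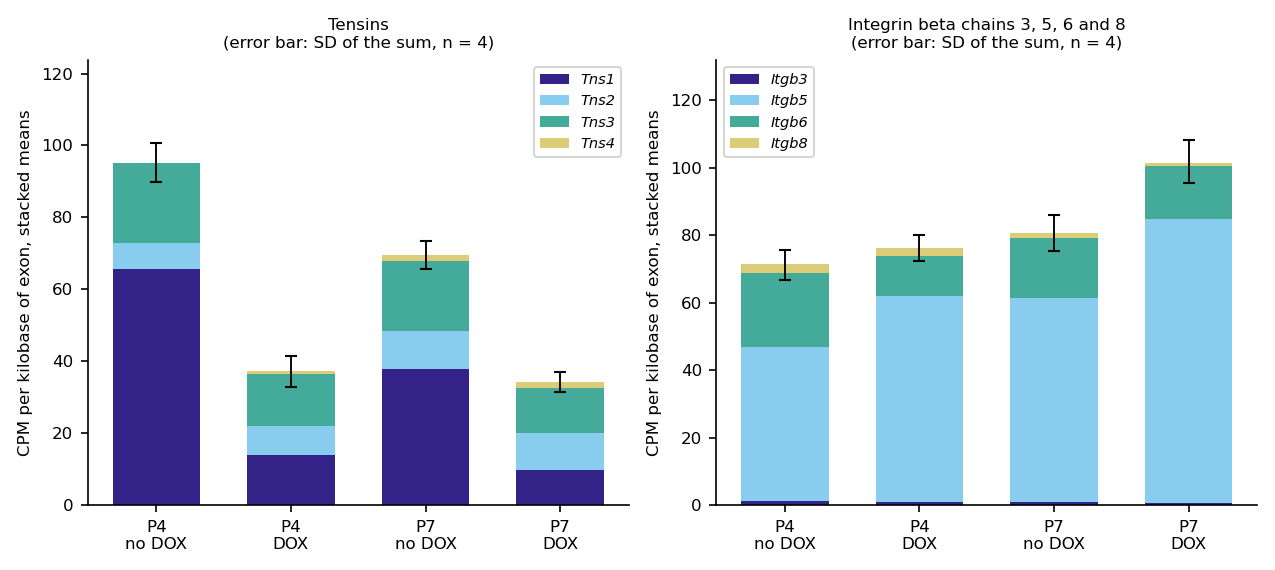
Stacked mean levels in CPM per kilobase of exon (vertical axis) of the tensins (left) and of integrin beta chains 3, 5, 6 and 8 (right) in the 4 groups of 4 libraries; error bars are the SD of the sum. The tensin stack shrinks from 95.2 to 37.1 and from 69.6 to 34.1 with DOX as the Tns1 segment narrows, while in the beta chains the Itgb5 segment widens.

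Among the collagen-binding alpha chains, which pair with beta 1, Itga2 and Itga10 rose at passage 4 and Itga1 fell at passage 7. Itga1 (chromosome 13, 114953096 to 115101964) stood at 71.5, 72.6, 68.4 and 74.0 CPM at passage 4 without DOX and at 60.0, 69.1, 53.0 and 49.6 CPM with it. At passage 7 it stood at 41.0, 39.9, 43.3 and 50.1 CPM without DOX and at 23.2, 21.4, 16.3 and 21.6 CPM with it. The groups touched at passage 4, where replicate 2 with DOX lay within the range without it, and were well apart at passage 7. For Itga1 the log2 fold change was -0.30 ± 0.10 (adjusted p = 0.051) at passage 4 and -1.08 ± 0.11 (1.2e-06) at passage 7, and the responses differed by -0.78 ± 0.15 (0.013). That difference was -0.71 within replicates 1 and 2 and -0.82 within replicates 3 and 4. With the replicate block the fall at passage 4 was also called (adjusted p = 0.02). Gm49395 shares 685 bases of the 18.6 kilobases of Itga1 exon on the same strand, so reads from those bases are uncertain.

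Itga2 reached 116 to 209 CPM with DOX at passage 4 against 104 to 133 CPM without it, a log2 fold change of 0.54 (adjusted p = 0.013). The rise at passage 4 rested on replicates 3 and 4: it was 0.14 (0.64) within replicates 1 and 2 and 0.88 within replicates 3 and 4. At passage 7 Itga2 stood at 179 to 202 CPM with DOX and 123 to 150 CPM without it, with no overlap (0.52, adjusted p = 0.013), and at 0.46 (0.13) within replicates 1 and 2. Itga10 (chromosome 3, 96645584 to 96664519) is a weakly expressed chain, at 1.99, 1.55, 3.06 and 2.97 CPM without DOX and 4.19, 5.17, 4.13 and 3.46 CPM with it at passage 4. At passage 7 it stood at 4.44, 2.69, 2.73 and 2.41 CPM without DOX and 3.79, 3.17, 4.12 and 4.63 CPM with it. The groups were apart at passage 4 and overlapped at passage 7. The log2 fold change was 0.82 ± 0.23 (adjusted p = 0.017) and 0.35 ± 0.23 (0.31). The passage 4 value was 1.42 within replicates 1 and 2 and 0.32 (0.38) within replicates 3 and 4. It was no longer called without DOX replicate 2 (0.70) or without replicate 1 (0.75) or 2 (0.66) of the untreated cells. Gm42957 shares 1739 bases of exon with Itga10 on the same strand, so its reads are uncertain.

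The laminin-binding chain Itga6 (chromosome 2, 71745616 to 71858416), which pairs with beta 1 or, in hemidesmosomes, with beta 4, rose at both passages. It stood at 213, 214, 211 and 203 CPM without DOX and 331, 324, 305 and 324 CPM with it at passage 4. At passage 7 the values were 207, 211, 209 and 199 CPM without DOX and 289, 257, 252 and 258 CPM with it. Every library with DOX lay above every library without it. Itga6 thus had a log2 fold change of 0.61 ± 0.05 (adjusted p = 6.5e-08) at passage 4 and 0.35 ± 0.05 (3.3e-05) at passage 7, 0.62 and 0.38 within replicates 1 and 2, and 0.60 and 0.32 within replicates 3 and 4. The difference of the responses was -0.26 (adjusted p = 0.086, and 0.016 with the replicate block).

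Itga7 (chromosome 10, 128933818 to 128958282), a laminin receptor chain best known from muscle, rose at passage 7. Its libraries read 16.3, 16.1, 12.5 and 12.0 CPM without DOX and 15.5, 22.1, 22.7 and 14.8 CPM with it at passage 4, where the groups overlapped. At passage 7 they read 26.2, 23.2, 24.2 and 21.9 CPM without DOX and 31.5, 42.1, 42.6 and 44.2 CPM with it, without overlap. The log2 fold change was 0.40 ± 0.15 (adjusted p = 0.075) at passage 4 and 0.75 ± 0.14 (0.00083) at passage 7, the latter 0.58 within replicates 1 and 2 and 0.91 within replicates 3 and 4. The responses did not differ past the threshold (0.34 ± 0.21, adjusted p = 0.58).

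Itga3, the most abundant member per exon length, had a log2 fold change of 0.01 at passage 4 (adjusted p = 0.96) and fell by 0.27 on the log2 scale at passage 7 (0.0013). Its difference of responses was -0.28 (adjusted p = 0.1, and 0.032 with the replicate block). Itga6 made up 6.43% ± 0.316 of the summed Itga3, Itga6 and Itga7 level per kilobase at passage 4 without DOX and 9.48% ± 0.708 with it, and 7.78% ± 0.165 and 11.4% ± 0.386 at passage 7, and Itga3 held at least 86.1% in every library.

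**Figure D3:**
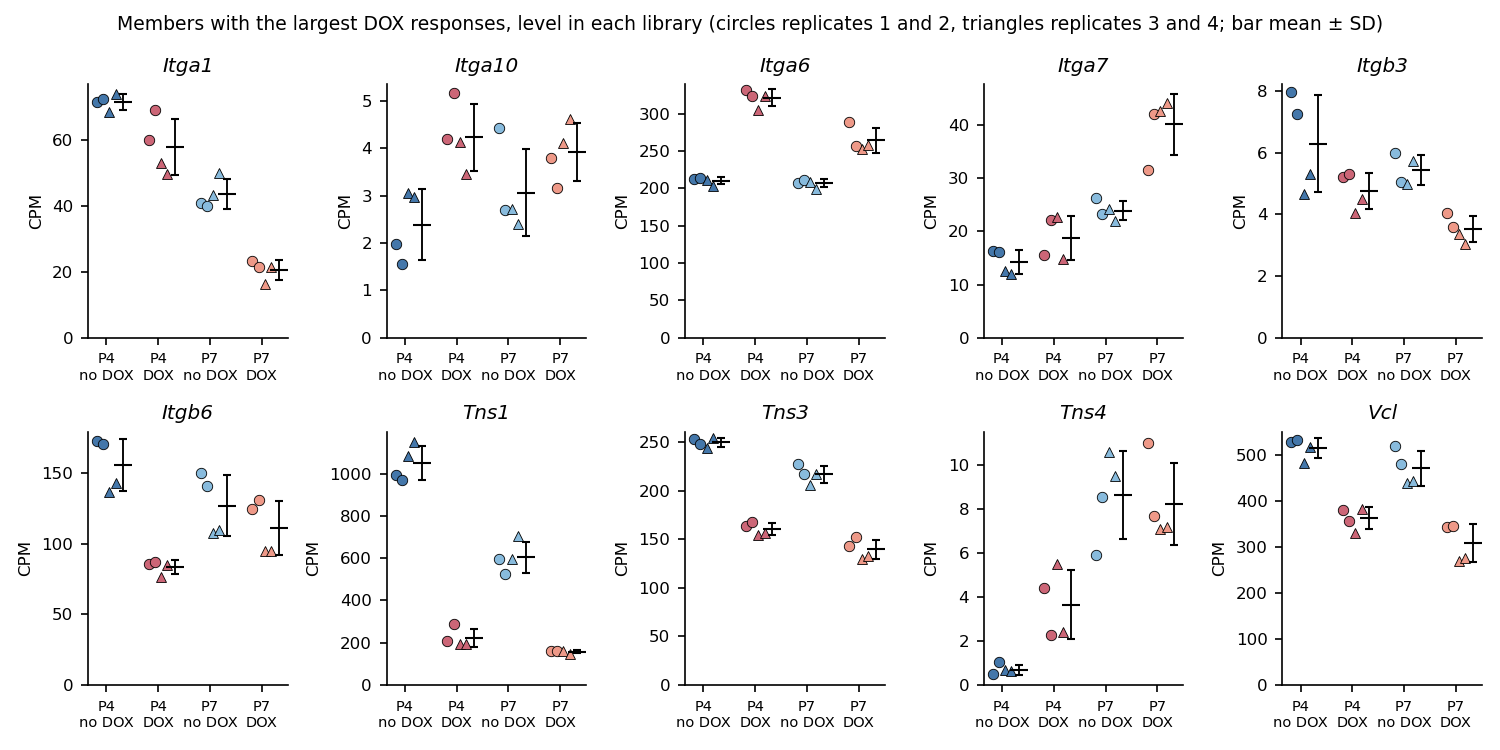
Level in CPM (vertical axis, from 0) of the 10 members with per-library values in each of the 16 libraries, by group; circles are replicates 1 and 2, triangles replicates 3 and 4, and the bars beside them mean ± SD of 4 libraries. Tns1, Tns3, Itga6 and Vcl separate by DOX at both passages, Itgb6 and Tns4 at passage 4 alone, and Itga1 and Itga7 drift with passage as well.

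The RGD-binding chain Itgav, partner of several beta chains, fell at both passages, by 0.35 (adjusted p = 0.017) and 0.50 (0.0012) on the log2 scale. The passage 4 call was lost without DOX replicate 3 (-0.30) or without untreated replicate 2 (-0.32). Its partners went different ways. Itgb5 rose from 152 to 171 CPM without DOX to 202 to 226 CPM with it at passage 4, and from 204 to 231 CPM to 282 to 312 CPM at passage 7, with no overlap. The log2 fold changes were 0.42 (adjusted p = 3e-05) and 0.48 (5.5e-06). Itga5, the fibronectin receptor chain, did not pass the test at either passage (-0.27 and 0.14). Its passage 4 value was called with the replicate block (adjusted p = 0.04).

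Itgb6 (chromosome 2, 60598292 to 60722643), the epithelial partner of alpha v that activates latent TGF-beta, fell at passage 4 to 53.5% of its level. It stood at 173, 171, 137 and 143 CPM without DOX and 86.1, 86.9, 76.3 and 84.9 CPM with it. At passage 7 it stood at 150, 141, 108 and 110 CPM without DOX and 125, 131, 95.1 and 95.2 CPM with it. The groups were apart at passage 4 and interleaved at passage 7, where replicates 1 and 2 lay above replicates 3 and 4 in both groups. This was a log2 fold change of -0.90 ± 0.13 (adjusted p = 9.6e-05) at passage 4 and -0.19 ± 0.13 (0.32) at passage 7. Within replicates 1 and 2 it was -0.99 at passage 4 and within replicates 3 and 4 -0.80. The difference of the responses was 0.71 ± 0.18 (adjusted p = 0.067). With the replicate block the difference was called (1.2e-05), as was the passage 7 value (0.015).

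Itgb3 (chromosome 11, 104608000 to 104670476), the vitronectin receptor partner of alpha v, fell at passage 7. Its libraries read 7.96, 7.24, 4.66 and 5.31 CPM without DOX and 5.20, 5.29, 4.04 and 4.50 CPM with it at passage 4, and 5.99, 5.06, 4.98 and 5.72 CPM without DOX and 4.05, 3.59, 3.37 and 3.05 CPM with it at passage 7. The groups overlapped at passage 4 and not at passage 7. Itgb3 had log2 fold changes of -0.39 ± 0.17 (adjusted p = 0.12, and 0.041 with the replicate block) and -0.64 ± 0.17 (0.012). The passage 7 value was -0.54 (0.074) within replicates 1 and 2 and -0.73 within replicates 3 and 4.

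Itgb1, the common partner of most alpha chains and the most abundant beta chain, had log2 fold changes of -0.15 (adjusted p = 0.063, and 0.014 with the replicate block) and -0.05 (0.54). Itgb4 had 0.13 (0.37) and -0.24 (0.068, and 0.0032 with the block), and Itgb8 -0.03 (0.97) and -0.46 (0.36, and 0.0026 with the block). In the summed level per kilobase of Itgb3, Itgb5, Itgb6 and Itgb8, Itgb5 made up 64.3% ± 3.36 at passage 4 without DOX and 80.4% ± 1.49 with it, and 75.1% ± 3.08 and 83.0% ± 2.18 at passage 7. Itgb6 made up 30.7% ± 2.33 and 15.4% ± 0.991 at passage 4, and 22.1% ± 2.71 and 15.4% ± 1.78 at passage 7. Itgb5 was thus the largest of these 4 chains in all groups, and the shares were not tested.

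Itgb2, the beta chain of leukocyte integrins, was expressed at 0.516 to 3.43 CPM. It had log2 fold changes of -0.85 (adjusted p = 0.065) and 0.48 (0.17) with DOX. The 8 leukocyte markers summed to 39.0 to 46.9 CPM at passage 4 without DOX and 20.1 to 35.6 CPM with it, and to 67.1 to 75.2 CPM and 36.1 to 43.7 CPM at passage 7. The defining markers Adgre1 and Itgam were at 0 in all libraries, and Ptprc, Cd68 and Csf1r, the 3 that were tested, fell with DOX at both passages. Their part in the Itgb2 values was not tested.

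Of the integrin activators, Fermt2 (kindlin-2) fell at both passages, by 0.35 (adjusted p = 0.00065) and 0.36 (0.00037) on the log2 scale, with no overlap between the groups at either passage. Fermt1 (kindlin-1, the epithelial form) fell by 0.19 (0.035) at passage 4. That call was lost without any 1 of 7 libraries: DOX replicates 1, 2 or 3, untreated replicates 1, 2 or 4, or passage 7 DOX replicate 3 (-0.20 to -0.14), and the value was -0.10 (0.21) within replicates 3 and 4. At passage 7 Fermt1 had 0.09 (0.33). Talin 1 (Tln1) had -0.23 (0.053, and 0.0029 with the replicate block) at passage 4 and fell by 0.24 (0.035) at passage 7, a call lost without DOX replicate 1, 3 or 4 or untreated replicate 1 or 2 (-0.25 to -0.17). Talin 2 (Tln2) fell by 0.46 (0.025) at passage 4, a call lost without DOX replicate 3 (-0.40) or untreated replicate 1 (-0.41) or 2 (-0.37) or within replicates 3 and 4 alone (-0.33, 0.11). It had -0.38 (0.05, and 0.0064 with the block) at passage 7, where the groups did not overlap.

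In the ILK complex, which couples integrin tails to actin, the parvins parted. Parva fell by 0.22 (adjusted p = 0.0055) and 0.35 (7.2e-05) on the log2 scale, while Parvb had 0.24 (0.076) and 0.12 (0.36). Ilk, the scaffold kinase, had -0.18 (0.072, and 0.0043 with the replicate block) at passage 4 and fell by 0.20 (0.037) at passage 7. The Ilk call was lost without passage 7 DOX replicate 1, 2 or 4 or untreated replicate 3 or 4 (-0.21 to -0.16), and within replicates 1 and 2 (-0.16, 0.093). Taf10 overlaps 2106 bases of Ilk exon on the opposite strand, and the strand setting of the counting is not given, so the Ilk counts are uncertain. Lims1 and Lims2, which encode the PINCH proteins, did not pass the test at either passage, with values from -0.16 to 0.43. With the block, Lims1 was called lower at passage 4 (-0.15, adjusted p = 0.029) and higher at passage 7 (0.16, 0.015).

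Of the signalling adaptors, Bcar1, which encodes the stretch-sensitive scaffold p130Cas, fell from 235 to 245 CPM to 164 to 199 CPM at passage 4 and from 204 to 222 CPM to 179 to 185 CPM at passage 7. The log2 fold changes were -0.39 (adjusted p = 2.9e-05) and -0.23 (0.0038). Its partners FAK (Ptk2; -0.08 and 0.05) and paxillin (Pxn; -0.05 and -0.12) did not pass the test, though paxillin at passage 7 was called with the replicate block (0.049). Zyxin (Zyx), a LIM protein of mature adhesions, had -0.22 (0.18, and 0.0015 with the block) and -0.05 (0.77).

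Vcl (chromosome 14, 20929398 to 21033676) encodes vinculin, which binds talin and actin and is recruited to adhesions under force. It stood at 527, 532, 483 and 517 CPM without DOX and 381, 357, 330 and 383 CPM with it at passage 4. At passage 7 it stood at 520, 481, 439 and 444 CPM without DOX and 343, 345, 269 and 277 CPM with it. The groups were apart at both passages. The log2 fold change was -0.50 ± 0.08 (adjusted p = 0.0002) and -0.61 ± 0.08 (2.2e-05), with -0.52 and -0.54 within replicates 1 and 2 and -0.49 and -0.69 within replicates 3 and 4. Ap3m1 overlaps 2090 bases of Vcl exon on the opposite strand, which leaves its counts uncertain in the same way as those of Ilk.

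Of the actin crosslinkers, Actn4 fell by 0.17 on the log2 scale at both passages (adjusted p = 0.012 and 0.011). The passage 7 call was lost without DOX replicate 4 (-0.14), and within replicates 1 and 2 neither passage was called (-0.15 and -0.12). Actn1 fell by 0.28 (0.0044) at passage 4 and had -0.14 (0.12, and 0.047 with the replicate block) at passage 7. Filamin A (Flna), the most abundant adaptor message here per exon length, had -0.20 (0.063, and 0.026 with the block) and -0.14 (0.18).

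Passage moved members in both directions. Without DOX, 8 members rose from passage 4 to passage 7 and 9 fell, against 14.3% and 11.3% of all genes. With DOX, 11 rose and 11 fell, against 18.3% and 15.8%. The passage comparisons use the same libraries as the DOX comparisons, so their values stand side by side only. Passage and anything else that differed between the cultures of each passage cannot be told apart. Without untreated passage 4 replicate 4, 5 members fell in place of 9.

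Of the 36 tested members Tns4 rose most with passage without DOX and Itgb2 with it. Both passed the filter with few counts in the group where each was lowest, so these ranks depend in part on the filter. Tns4 rose by 3.58 ± 0.33 (adjusted p = 6.1e-07) on the log2 scale without DOX and 1.19 ± 0.25 (0.0015) with it, and Tns1 fell by 0.79 (7.1e-05) and 0.50 (0.0024). Parvb rose from 73.5 to 88.4 CPM to 141 to 162 CPM without DOX (0.90, 1.3e-06) and by 0.78 (2.5e-06) with it. Itga7 rose by 0.75 (0.0014) and 1.09 (1.6e-05), Itga5 by 0.45 (0.0035) and 0.86 (5.2e-06), and Itgb5 by 0.40 (4.8e-05) and 0.46 (6e-06). FAK and paxillin, which were not called with DOX, rose with passage: Ptk2 by 0.40 (0.00023) and 0.53 (6.7e-06), and Pxn by 0.22 (0.0024) and 0.16 (0.014). Itga1 fell by 0.72 (7.7e-05) and 1.50 (1.9e-08), Itga3 by 0.33 (0.00028) and 0.61 (2.2e-07), Itgav by 0.48 (0.0017) and 0.62 (0.00011), and Tns3 by 0.20 (0.0082) and 0.20 (0.0064).

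Some members were called in 1 passage comparison alone. Without DOX, Tns2 rose by 0.58 (adjusted p = 0.0019). Bcar1 fell by 0.17 (0.021), a call lost without untreated passage 4 replicate 3 or 4 or passage 7 replicate 1 or 2 (-0.16 to -0.15). Flna fell by 0.22 (0.03), lost without passage 4 replicate 2 or 4 or passage 7 replicate 3 or 4 (-0.22 to -0.19). With DOX, Itgb2 rose by 2.01 (2.1e-05), where the leukocyte markers summed to 20.1 to 35.6 CPM at passage 4 and 36.1 to 43.7 CPM at passage 7, and Lims1 rose by 0.42 (0.00023). Of the 3 leukocyte markers tested there, Cd68 (0.81, 0.00073) and Csf1r (0.58, 0.0069) rose and Ptprc, the pan-leukocyte marker CD45, fell (-3.66, 0.00019). Itgb8 fell by 1.25 (0.0073), Itga6 by 0.28 (0.00022) and Parva by 0.21 (0.0042). Itgb6 rose by 0.42 (0.019), lost without passage 4 DOX replicate 3 (0.38) or passage 7 DOX replicate 1 (0.36) or 2 (0.33). Zyx rose by 0.34 (0.02) and Vcl fell by 0.24 (0.031), and both calls were lost without 1 of 4 libraries: passage 4 DOX replicate 1 or 2 for Zyx and 1 or 4 for Vcl, and passage 7 DOX replicate 3 or 4 for both (0.27 to 0.32, and -0.21 to -0.18). Within replicates 1 and 2 alone Flna (-0.12, 0.2), Vcl (-0.10, 0.2) and, with DOX, Pxn (0.13, 0.073) were not called. With the replicate block the tests also called Itgb4, Itgb6, Itgb8, Fermt1 and Zyx without DOX (adjusted p = 2.2e-06 to 0.022) and Itgb3, Itgb4, Tns2 and Flna with DOX (0.0038 to 0.048).

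Tln1 and Fermt2 fell in both passage comparisons by small amounts. Tln1 fell by 0.22 (adjusted p = 0.046) without DOX, a call that held when any 1 of 5 libraries was left out and was lost without any of the other 11 (-0.24 to -0.16), and it was -0.08 (0.36) within replicates 1 and 2. The 5 were passage 4 DOX replicates 2 and 3, passage 7 DOX replicates 2 and 3 and untreated passage 7 replicate 1. With DOX it fell by 0.23 (0.03), lost without passage 4 DOX replicate 1, 2 or 4 or passage 7 DOX replicate 3 or 4 (-0.23 to -0.19). Fermt2 fell by 0.20 (0.026) without DOX, lost without untreated passage 4 replicate 2 or 4 or passage 7 replicate 1, 2 or 3 (-0.20 to -0.17), and by 0.22 (0.014) with DOX, lost without passage 4 DOX replicate 2 (-0.17). Neither Fermt2 value was called within replicates 3 and 4 (-0.17, 0.066, and -0.18, 0.051).

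**Figure D4:**
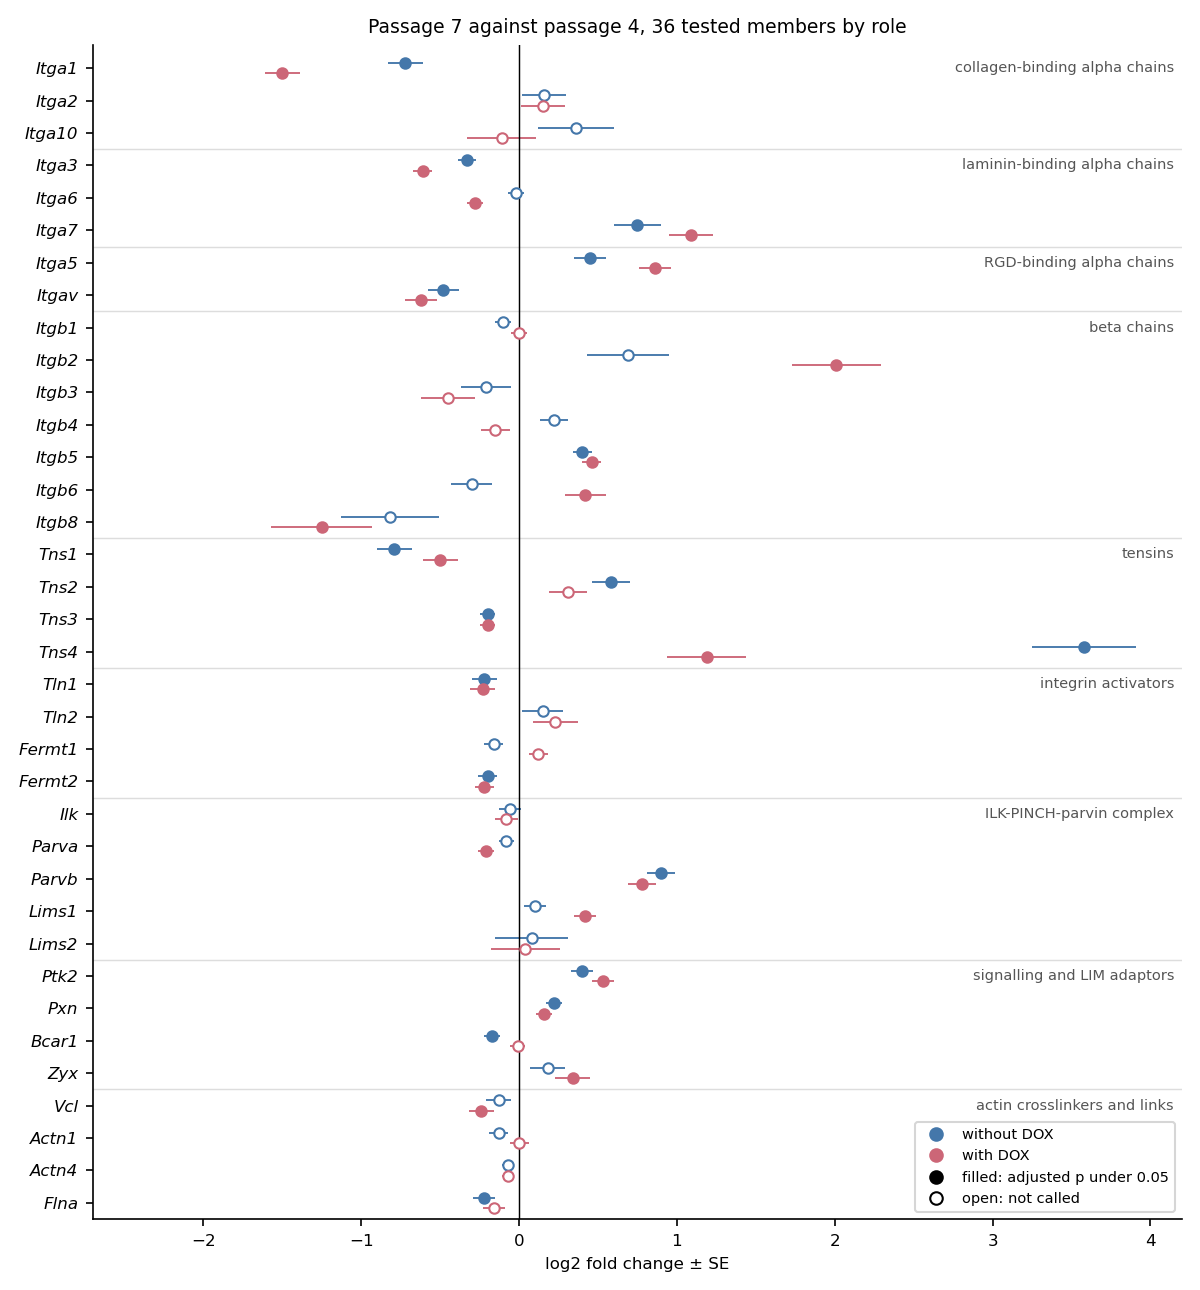
Log2 fold change from passage 4 to passage 7 (horizontal axis, ± SE) for the 36 tested members by role, in cells without DOX (blue) and with DOX (red); filled points have an adjusted p under 0.05. Tns4 lies farthest right without DOX (3.58), Itgb2 with DOX (2.01), and Itga1 farthest left with DOX (-1.50).

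The DOX response differed between passages for 2 of the 36 members, Itga1 and Tns4, both lower at passage 7, against 0.679% of all genes. For 0 members it was higher by edgeR's test, against 0.516%, with 6 at an unadjusted p under 0.05 and 1, Itgb6, called by DESeq2. With the replicate block 3 were higher (Itgb6, Fermt1 and Lims1) and 5 lower (Itga1, Tns4, Itga3, Itga6 and Itgb4), against 1.87% and 2.79% of all genes with that block. For the other members a missed threshold does not show that both passages responded alike: the responses of Tns1 differed by 0.29 ± 0.16 (adjusted p = 0.51), and those of Itgb2 by 1.33 ± 0.39 (0.12).

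Per kilobase of exon, levels spanned from a median over 16 libraries of 295 CPM for Itga3 to 0.436 CPM for Itgb2. Itga3 (295), Itgb1 (259), Flna (209), Actn4 (170) and Actn1 (118) led, so that the laminin receptor of alpha 3 and beta 1 was the most abundant pair of messages. Neighbours in this order such as Zyx (50.8), Vcl (50.2), Itgb4 (49.8), Ilk (49.0) and Itgav (48.7) lay closer together than the spread of their own libraries. Tns1 stood at 65.6 ± 5.14 CPM per kilobase at passage 4 without DOX and at 9.81 ± 0.491 at passage 7 with DOX. Exon length stands for all annotated transcripts of a gene, so genes with long rare transcripts are understated.

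**Figure D5:**
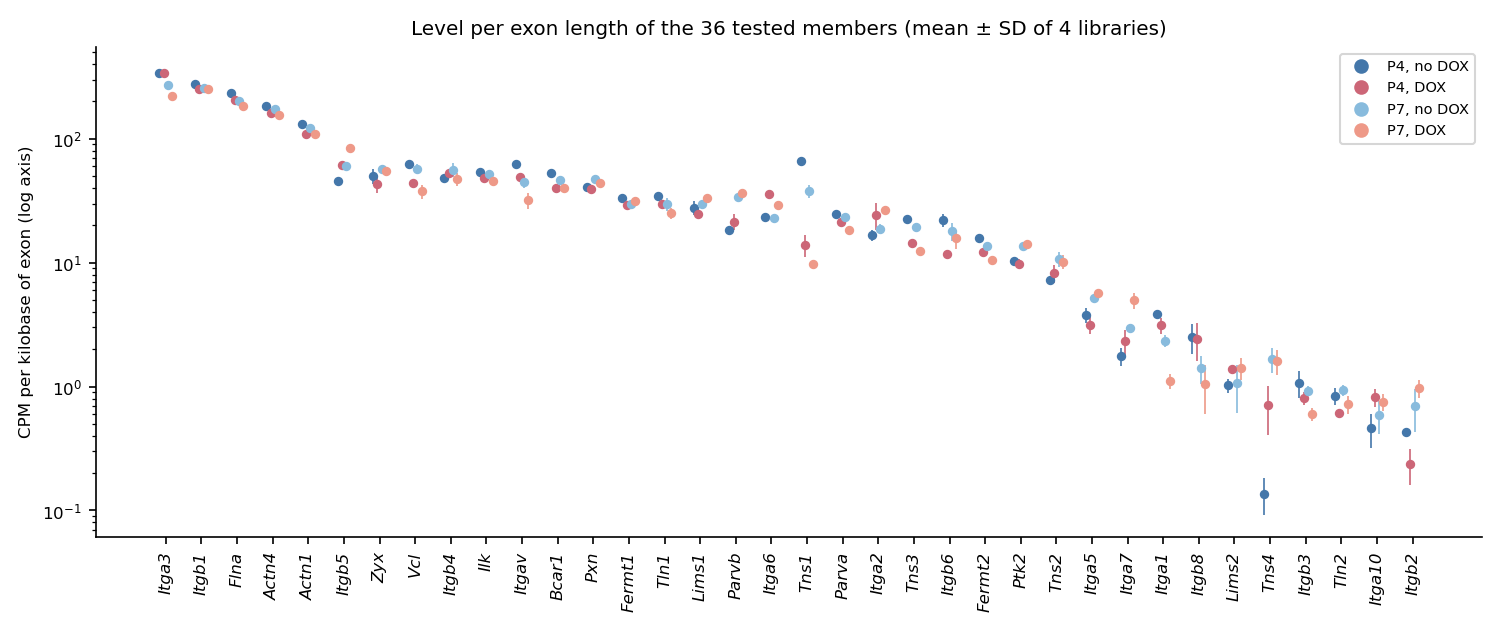
Level in CPM per kilobase of exon (vertical axis, log scale) of the 36 tested members, ordered by their median over 16 libraries; points are means of 4 libraries and bars the SD, by group. Itga3 and Itgb1 lead at 295 and 259, Itgb2 comes last at 0.436, and Tns1 and Tns4 show the widest gaps between groups.

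The 6 members that did not pass the filter had few counts in every library. The highest count in any library was 2 for Itga8, 3 for Itga11, 5 for Itga4 and Itga9, and 13 for Itgb7 and Tgfb1i1, which encodes the paxillin relative Hic-5. These 6 were not tested. Tgfb1i1 stood at 0.222 to 0.547 CPM at passage 4 without DOX and 0.706 to 1.12 CPM with it, on 3 to 7 and 10 to 13 counts a library, with no overlap. At passage 7 its groups overlapped, at 0.316 to 0.723 and 0.440 to 0.705 CPM. Tns4 and Itgb2 passed the filter with few counts in the group where each was lowest.

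The ligands of these receptors were examined as a list of 42 genes, 31 of them tested. Like the members, this list and those below were chosen with earlier results of these data known, so their counts describe and do not test. With DOX at passage 4, 13 fell and 5 rose, with a median log2 fold change of -0.27, and at passage 7, 12 fell and 3 rose, with a median of -0.31. The shares over all tested genes were 9.10% lower and 8.45% higher at passage 4, and 11.6% lower and 11.1% higher at passage 7, where the rises were no more frequent than that. At both passages 12 ligands fell and 1 rose, against 6.08% and 5.05% of all genes. The 1 was Lama3, a chain of the epithelial laminin bound by Itga3 and Itga6 (0.72, adjusted p = 6.2e-08, and 0.84, 7.2e-09). Other laminin chains that rose at passage 4 included Lamc1 (0.36, 0.00075) and Lama5 (0.49, 0.0045). The basement membrane collagen Col4a2 (-1.94, 7.4e-08), fibronectin (Fn1; -1.28, 2.1e-07), the matricellular protein Ccn1 (-1.59, 1e-06) and nephronectin (Npnt; -0.58, 6.7e-06) had the smallest adjusted p among the ligands that fell at passage 4. At passage 7 osteopontin (Spp1; -1.25, 2.4e-06), Ccn1 (-1.04, 5.2e-05), thrombospondin 1 (Thbs1; -0.67, 6e-05) and Npnt (-0.44, 9.1e-05) had the smallest, and Col4a3 (0.58, 1.3e-05) and Col4a4 (0.55, 3.7e-05) rose. The responses differed between passages for Fn1 (0.82, 0.0088), Col4a2 (1.20, 0.0081) and Col4a3 (0.70, 0.002).

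Of 9 other integrin chains and chain-binding genes 3 were tested and 0 were called with DOX by edgeR, with Itgb1bp1 at an unadjusted p under 0.05 at passage 4 and none of the 3 at passage 7. A further list held 76 other focal adhesion genes, 68 of them tested. With DOX 19 fell at each passage, and 7 rose at passage 4 and 9 at passage 7, with median log2 fold changes of -0.14 and -0.07. Of all tested genes 9.10% fell and 8.45% rose at passage 4, and 11.6% fell and 11.1% rose at passage 7, so the rises lay near the background. At both passages 14 fell and 5 rose, against 6.08% and 5.05%. The actin and vinculin binders Sorbs2 (-0.97, adjusted p = 2.6e-09, and -0.73, 4.8e-08) and Lasp1 (-0.48, 5.4e-07, and -0.60, 2.7e-08) and the actin organiser palladin (Palld; -0.88, 1.5e-06, and -0.71, 1.3e-05) fell at both. So did Rsu1, a partner of the PINCH proteins (-0.55, 1.8e-05, and -0.41, 0.00035), and Dlc1, which encodes a protein that binds tensins (-0.54, 1.9e-05, and -0.65, 1.9e-06). Sorbs3, which encodes the vinculin binder vinexin (0.54, 2.4e-05, and 0.41, 0.00017), Elmo1 (1.87, 0.00077, and 2.14, 1.6e-05), Nedd9, a relative of Bcar1 (0.27, 0.016, and 0.58, 1.4e-05), and Pdlim1 (0.23, 0.048, and 0.56, 3.7e-05) rose at both. Elmo1 was weakly expressed, with means of 0.534 CPM without DOX and 1.96 CPM with it at passage 4, and 1.12 and 4.94 CPM at passage 7. Cttn (0.18, 0.0089) rose at passage 4. Stard8 was called in opposite directions, 0.46 (0.0079) at passage 4 and -0.36 (0.032) at passage 7, and its responses differed (-0.82, 0.016).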

How the data were processed

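Poly(A) RNA from 16 libraries was sequenced as paired reads of 75 bp with a strand-marking kit and aligned with STAR 2.6.0c to GRCm38.p6, per the labels' protocols. The authors deposited whole-number counts per Ensembl gene and a TPM table. The counting tool, annotation release, strand setting and the way TPM was made are not given in the sources used here. Groups follow the sample titles. The members and gene lists were chosen with earlier results of these data known.

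All values rest on the deposited counts, whose totals of 9937504 to 17188295 set the precision. Genes were filtered by edgeR's filterByExpr (15316 kept, 40220 removed), scaled by TMM and fitted together, 1 mean per group, with edgeR 4.0.16's robust quasi-likelihood test in R 4.3.3 (12 residual degrees of freedom). Every adjusted p printed comes from this test or, where said, from the same test with a block or within 1 replicate pair. Those within a pair come from fits of its libraries alone, with their own filter, scaling and spread. All were adjusted by Benjamini-Hochberg over all genes tested in the fit, with a threshold of 0.05. Each SE of a log2 fold change was worked back from the test, as its absolute value over the square root of the F statistic. Positions are those of the GRCm38 annotation. Values of every library are printed for members called with DOX at an absolute log2 fold change of at least 0.58 or called for the difference between passages, other called members are given by fold change or range, and other lists by counts with up to 4 genes a direction and passage, by smallest adjusted p and not by size. Further genes of those lists were named for both passages or a difference after their values were seen. Some genes that this rule would name are not reported here. The steps were tested on simulated counts for DOX at passage 4 over 15128 genes. Of genes changed 1.25-fold 26% were recovered, and of those changed 2-fold 98%. Of 164 calls 14 were false, a larger share than the 0.05 aimed at. Only genes above a minimum mean count were changed, and no difference between replicate pairs was simulated. The recovery therefore does not cover weakly expressed members or the pair structure of these libraries.

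Of the 16 TPM columns deposited by the authors, 4 correlated most with the equally named count column over 12206 genes, and 12 with a column from a different group. Pkd2 follows the count headers, so no TPM value is used as a result. Deviations from the group means correlated between libraries of equal replicate number (0.264 to 0.571), so numbers were treated as pairing libraries. The numbers 1 and 2, and 3 and 4, were as close (0.284 to 0.648), against -0.59 to -0.273 between these pairs. Of the 16 libraries 9 correlated most with one of their own number, so pairing by number within a pair is not shown. Alternatives were other size factors, DESeq2 1.42.0, no filter, the compared groups alone, the block, the pair as a term, each pair alone, each library left out, and limma 3.58.1 on log2(TPM + 1) of genes with a mean of at least 1.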

Additional observations from a re-analysis of the deposited data

Results flagged for a closer look

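Of 44 groups of 4 libraries checked, in 5 the highest or lowest library stood far from the rest, and chance flags about 1 in 20 groups. Tns1 read 289 CPM in passage 4 DOX replicate 2, the highest of its group. Passage 7 DOX replicate 1 was the highest of its group for Itga6 (289 CPM) and Tns4 (11.0 CPM) and the lowest for Itga7 (31.5 CPM). Itga10 read 4.44 CPM in untreated passage 7 replicate 1, the highest of its group.

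The DOX response differed between passages by edgeR's test of the difference for Itga1 (-0.78 on the log2 scale, passage 7 minus passage 4) and Tns4 (-2.40).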

How the results depend on the processing

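Other size factors, no filter and the compared groups alone kept every count of members within 1.5 times. Of the calls of single members, no filter lost 3 of 75 and the compared groups alone lost 6 of 73. Which calls these were is not reported here. With the replicate block, 21 members fell at passage 4 in place of 12, and 19 at passage 7 in place of 13. Of all tested genes 14.0% fell at passage 4 with the block in place of 9.10%. The DOX response was higher at passage 7 for 3 in place of 0 and lower for 5 in place of 2. The shares of all tested genes with the block were 1.87% and 2.79%, in place of 0.516% and 0.679%. The block lost no call named in the report. With the replicate pair as a term these counts were 22, 19, 4 and 5. Within replicates 1 and 2 alone, 4 responses were higher and 4 lower, and within replicates 3 and 4 alone 2 and 6, with 20 members fallen at passage 7 in place of 13. DESeq2 gave 1 and 4. The shares of all tested genes with the pair term, within a pair, by DESeq2 and with 1 library left out are not reported here. The counts of members under these settings are therefore not read as results about the members. The causes were not tested.

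With 1 library left out, 4 to 7 members rose and 10 to 15 fell with DOX at passage 4, and 4 to 5 and 10 to 14 at passage 7. From passage 4 to 7, 8 to 9 rose and 5 to 11 fell without DOX, and 10 to 12 and 9 to 12 with it. The DOX response was higher for 0 to 1 (1 without untreated passage 7 replicate 1 or 3) and lower for 2 to 3. Pkd2 ran from -1.45 to -1.37 and from -1.79 to -1.63.

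With TPM columns as headed, 0 members rose or fell with DOX at either passage, 1 rose with passage without DOX and 3 with DOX, 0 responses differed, and Pkd2 changed by -0.06 at passage 4 and by 0.18, the opposite direction, at passage 7; these headers disagree with the counts. Under the alternatives on counts, no called value named in the report changed sign. Members under about 5 CPM, such as Itga10, Itgb2 and Tns4 at passage 4, rest on few counts.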
